A study of Homo sapiens with 36 samples.

Results

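MPZL2, CD3E and 4 genes beside them on chromosome 11q23 (MPZL3, CD3D, CD3G and UBE4A) were followed through 6 treatments of human neural stem cells (hNSC), a commercial line of Gibco. They are 6 of 28516 gene symbols in the count table. MPZL2 and CD3E were chosen by their raised counts in MEIS1-OE relative to ctrl-OE, and the other members by their position in the same stretch. Values of the members in that comparison are therefore given as a description, without a test, and the other comparisons are tested. MEIS2-OE against ctrl-OE and ctrl-OE against ctrl-KO share the ctrl-OE libraries with it, whose low counts of MPZL2 and CD3E entered the choice. The question was whether activation of a silent gene spreads to the genes next to it.

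The study raised or disrupted MEIS1 or MEIS2 by lentiviral CRISPR systems and measured poly-A RNA by RNA-seq 48 h after transduction, with 6 libraries in each of 6 conditions. MEIS1-OE and MEIS2-OE received a Cas9 that does not cut, fused to the activator VP64 (lenti dCAS-VP64_Blast), the MS2-bound activators of lentiMPHv2, and 1 activation guide on sgRNA(MS2)_puro, CRISPRa-MEIS1-g2 or CRISPRa-MEIS2-g8. MEIS1-KO and MEIS2-KO received cutting Cas9 on lentiCRISPRv2, with an equal mixture of the guides MEIS1-g2 and MEIS1-g3 or of MEIS2-g2 and MEIS2-g5. ctrl-OE and ctrl-KO received the same system as their condition with non-targeting guides, so that MEIS1-OE and MEIS2-OE share the ctrl-OE libraries and MEIS1-KO and MEIS2-KO share the ctrl-KO libraries. The labels do not say whether the 6 libraries of a condition came from separate cultures, so p-values measure the spread between these libraries, which may be technical.

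MPZL2 and MPZL3 encode related membrane proteins with an extracellular domain of the immunoglobulin type, and are known from epithelia and skin. CD3E, CD3D and CD3G encode the epsilon, delta and gamma chains that carry the T cell receptor to the surface and pass its signal on, and their expression is a hallmark of T cells. UBE4A encodes a U-box ubiquitin ligase that extends ubiquitin chains and is expressed in most tissues. In CRISPR-activation, a guide RNA brings activation domains to a start site, and genes without detectable mRNA can be switched on by this.

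On GRCh37 (positions from GENCODE 44 lifted to this build) the members lie within 172.52 kb of chromosome 11. MPZL3 spans 118097405 to 118123080 and MPZL2 118124131 to 118135251, both on the minus strand, with 1.05 kb between the end of MPZL2 and the start of MPZL3. CD3E follows from 118175445 to 118186890 on the plus strand, with its start 40.2 kb from that of MPZL2 and pointing away from it. CD3D (118209790 to 118213420, minus strand) and CD3G (118215059 to 118225876, plus strand) lie head to head with 1.64 kb between their starts. UBE4A, from 118230315 to 118269926 on the plus strand, starts 95.1 kb from MPZL2.

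The activation guide of MEIS1-OE was aimed at chromosome 2, and its sequence is shown beside its longest match on 11q23. The guide matches the minus strand of GRCh37 at chr2:66662274-66662296, including an agg PAM, in an exon of MEIS1 annotated as untranslated. Around the members, searched to 500 kb on either side, the longest match next to an NGG PAM was 9 bases, at chr11:118202682-118202704 on the plus strand with a ggg PAM and no annotated gene. Capitals mark the 10 bases next to the PAM in the guide, and in the second line the bases next to the PAM that equal the guide.
CRISPRa-MEIS1-g2: tgtgtgttgcACAGGCGGAG
Longest match on 11q23: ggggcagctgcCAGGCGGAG
The second sequence differs from the guide at 9 of 20 positions. It lies 67.4 kb from the start of MPZL2, 27.2 kb from CD3E and 10.7 kb from CD3D. Within 1000 bp of the start sites, the longest match was 5 bases at MPZL2, 4 at MPZL3, CD3E and UBE4A, and 3 at CD3D and CD3G. A match of at least 10 bases within that distance was found for 19 of 16890 tested genes with a position (0.112%) and for 0 of the 6 members. The search counted only unbroken matches from the PAM, so sites with a mismatch there and more matching bases elsewhere were not looked for. At a share of 0.112%, a match among 6 genes would be rare in any case. Binding of the guide was not measured, and whether it has a part in the member values was not tested.

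The members include silent and abundant genes, and the start regions of CD3D and UBE4A are shown as an example of each. Windows of 250 bases before to 50 after the start were taken from RefSeq (GRCh38.p14), which matched CD3D and UBE4A but not MPZL2, MPZL3, CD3E and CD3G. Capitals mark CG dinucleotides.
CD3D, chr11:118342656-118342955, minus strand: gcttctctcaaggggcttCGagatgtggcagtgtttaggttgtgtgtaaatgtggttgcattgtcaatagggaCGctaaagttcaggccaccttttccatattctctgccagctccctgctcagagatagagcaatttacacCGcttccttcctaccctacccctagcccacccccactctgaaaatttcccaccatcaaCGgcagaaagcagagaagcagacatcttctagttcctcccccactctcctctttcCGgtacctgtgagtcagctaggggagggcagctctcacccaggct
UBE4A, chr11:118359350-118359649, plus strand: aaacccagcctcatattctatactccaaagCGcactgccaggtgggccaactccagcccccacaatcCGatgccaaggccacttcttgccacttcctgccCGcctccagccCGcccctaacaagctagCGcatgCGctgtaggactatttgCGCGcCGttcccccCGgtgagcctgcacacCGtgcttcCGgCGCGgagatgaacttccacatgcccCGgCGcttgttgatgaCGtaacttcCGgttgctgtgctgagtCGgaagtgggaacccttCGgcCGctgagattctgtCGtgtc
The window of CD3D holds 5 CG and 52.3% G or C, and that of UBE4A holds 22 CG and 60.7%. The median of 35116 windows was 14 CG and 58.7% G or C. The letters TGACAG, the core of the motif known for MEIS proteins, were searched on both strands and were in 0 of these 2 windows, against 15.8% of all windows.

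The libraries held 15429985 to 22940493 counts in all (median 20324720). A gene was tested if it had at least 10 counts summed over the 36 libraries (19689 genes, all 6 members among them), and CPM are counts scaled to the TMM-normalised size of a library. A gene was called when edgeR's quasi-likelihood test gave an adjusted p below 0.05 and the log2 fold change exceeded 0.58 in size. MEIS1 rose from 17.8 CPM in ctrl-OE to 310 CPM in MEIS1-OE and fell from 25.7 CPM in ctrl-KO to 8.96 CPM in MEIS1-KO, and MEIS2 rose from 22.6 to 824 CPM and fell from 25.8 to 12.1 CPM, with all 4 differences called. All 10 neural stem cell markers were detected in every condition, with a summed level of 3060 to 6240 CPM per library, the 3 OE conditions (3060 to 4370 CPM) lying below the 3 KO conditions (4560 to 6240 CPM).

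MPZL2 was silent in 5 of 6 conditions and was detected in every MEIS1-OE library. The 6 MEIS1-OE libraries held 13, 18, 22, 28, 22 and 25 counts, together 128. The 6 ctrl-OE libraries held 0 counts, which allows up to 3 counts over the group, or 0.0222 CPM. Against that limit the level in MEIS1-OE was at least 45.9-fold higher. The fitted log2 fold change of 7.37 depends on the small prior count that edgeR adds and is no bound.

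In CPM, MPZL2 ranged from 0.66 to 1.27 over the MEIS1-OE libraries, with 1.01 ± 0.214 (SD, n = 6). All 6 MEIS1-OE libraries lay above all 30 libraries of the other conditions, of which 27 had 0 counts and 3 had 1 count. The variance of the counts over the MEIS1-OE libraries was 1.31 times their mean, where counting error alone gives a value close to unity. MEIS1-OE held 97.7% of all MPZL2 counts of the series, 204-fold more per read than the other conditions together (exact 95% interval 68.3 to 1000, for counting error only). MPZL2 was chosen by these counts, so the interval is no test.

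**Figure D1:**
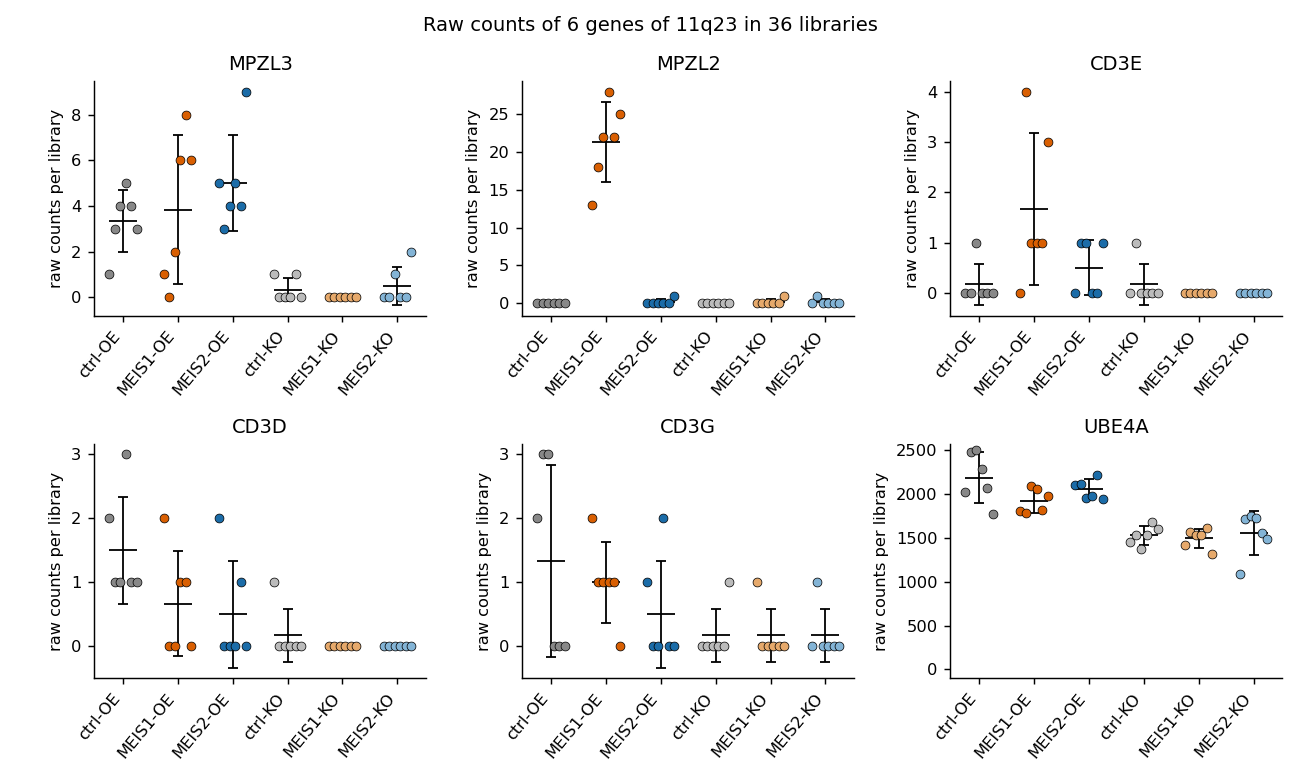
Raw counts per library (y axis, a scale of its own in each panel) of the 6 members in the 6 conditions (x axis), with 1 point for each library and a line with bars for the mean ± SD (n = 6). MPZL2 lay at 13 to 28 counts in MEIS1-OE and at 0 or 1 elsewhere, and MPZL3 had more counts in the OE than in the KO conditions.

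MPZL2 was near 0 in all conditions but MEIS1-OE. It had 1 count in replicate 6 of MEIS2-OE, 1 in replicate 6 of MEIS1-KO and 1 in replicate 2 of MEIS2-KO, and 0 in ctrl-KO. With 128 of its 131 counts in MEIS1-OE, it met the count filter only through that condition, and comparisons of 1 count with 0 could not have been called. No fold is given, since both groups were at or under 3 counts in each of these comparisons. A decrease of MPZL2 in MEIS1-KO was not detectable at this depth, because ctrl-KO already stood at 0.

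CD3E had far fewer counts than MPZL2. The MEIS1-OE libraries held 0, 4, 1, 1, 1 and 3 counts, together 10, and the ctrl-OE libraries held 1 count in replicate 3. These groups overlapped: replicate 1 of MEIS1-OE was at 0, and the 3 MEIS1-OE libraries with 1 count equalled the highest ctrl-OE library. The ratio per read was 10.7, with an exact 95% interval from 1.53 to 467 for counting error. This interval does not allow for the choice of CD3E by these same counts and is no test. The mean level was 0.0791 CPM in MEIS1-OE and 0.00692 CPM in ctrl-OE. Replicates 2 and 6 of MEIS1-OE held 7 of the 10 counts.

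In MEIS2-OE, CD3E had 1 count in each of replicates 2, 3 and 6, and its log2 fold change to ctrl-OE was 1.16 with a 95% interval from -0.83 to 3.15 (edgeR, adjusted p = 0.953). In ctrl-KO it had 1 count, and in both KO conditions 0. The comparison of ctrl-OE with ctrl-KO gave a log2 fold change of -0.15 (standard error 1.12, edgeR, adjusted p = 0.925). With 10 of its 15 counts in MEIS1-OE, CD3E met the count filter only through that condition. Comparisons of so few counts could hardly have been called, and these adjusted p carry little information.

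The thresholds were passed by 2 of 6 members in MEIS1-OE, MPZL2 and CD3E, where 2.84% of all tested genes passed. These are the values that chose the members. Of 954 tested genes with at most 3 counts over the ctrl-OE libraries, 34 (3.56%) were called higher in MEIS1-OE. Low counts in ctrl-OE together with the count filter favour calls in this direction in advance. The 2.84% holds calls in both directions, so these shares are not alike. As a description, the 34 genes were ordered by their counts in MEIS1-OE, which ran from 6 to 6198 with a median of 20. MPZL2 was number 4 and CD3E number 25.

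The genes on either side of MPZL2 and CD3E did not show the rise of MPZL2. For MPZL3, CD3D and CD3G the counts were few, and their ratio intervals overlapped that of CD3E, which began at 1.53. MPZL3, the nearest gene and a relative of MPZL2, had 1, 0, 2, 6, 8 and 6 counts in MEIS1-OE and 1, 3, 4, 5, 4 and 3 in ctrl-OE. The groups overlapped over their whole range, with 0.176 ± 0.145 and 0.147 ± 0.0608 CPM (SD, n = 6 each) and a log2 fold change of 0.29 (standard error 0.50). CD3D had 4 counts over MEIS1-OE and 9 over ctrl-OE, a ratio of 0.478 with an exact 95% interval from 0.108 to 1.71. CD3G had 6 and 8 counts, a ratio of 0.806 with an interval from 0.231 to 2.65. UBE4A was at 91.9 CPM in MEIS1-OE and 96.8 CPM in ctrl-OE, which is -0.07 on the log2 scale (standard error 0.06).

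In MEIS2-OE, MEIS1-KO and MEIS2-KO, 0 of 6 members passed, against 0.498%, 0.290% and 1.58% of all tested genes. At an unadjusted p under 0.05 the number was also 0 in each of these, and DESeq2 called 0 as well. In the KO comparisons all members but UBE4A had at most 3 counts over a group and could hardly have been called. With shares this low and 6 genes, a number of 0 says little about the members. MPZL3 had 30 counts over MEIS2-OE against 20 over ctrl-OE, a log2 fold change of 0.69 with a 95% interval from -0.23 to 1.61 (edgeR, adjusted p = 0.881). For CD3D the log2 fold change in MEIS2-OE was -1.26 (interval -2.77 to 0.24) and for CD3G -1.10 (interval -2.70 to 0.50). For these counts the intervals are wide, and changes of several fold were not detectable. For UBE4A the intervals were narrow, at -0.07 to 0.15 in MEIS2-OE, -0.13 to 0.10 in MEIS1-KO and -0.17 to 0.06 in MEIS2-KO.

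The activation system and the cutting system, each with non-targeting guides, were also compared, and MPZL3 and CD3D were higher with the former. In ctrl-OE against ctrl-KO, 2 of 6 members were called, where 22.1% of all tested genes were called and 13.0% were called higher in ctrl-OE. MPZL3, CD3D and CD3G had 5, 1 and 3 counts over the 18 KO libraries and met the count filter only through the OE libraries. A call in the other direction was hardly possible for them, which limits what their tests show. MPZL3 rose, with 20 counts over ctrl-OE against 2 over ctrl-KO and a log2 fold change of 2.69 (standard error 0.81, edgeR, adjusted p = 0.0057). Its libraries touched, since replicate 1 of ctrl-OE and replicates 1 and 5 of ctrl-KO had 1 count each. CD3D rose as well, with 2, 1, 1, 3, 1 and 1 counts in ctrl-OE against a single count in replicate 1 of ctrl-KO. Its log2 fold change was 2.27 (standard error 0.91, edgeR, adjusted p = 0.039), and the call was lost in 5 of the 6 fits without 1 replicate number (adjusted p = 0.0647 to 0.153) and in DESeq2 (adjusted p = 0.157).

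CD3G had 2, 3, 3, 0, 0 and 0 counts in ctrl-OE and 1 count over ctrl-KO. Its log2 fold change of 2.11 (standard error 0.97) had an adjusted p of 0.0676 (edgeR) and passed only in the fit without replicate 6 (adjusted p = 0.0143). UBE4A rose by less than the fold threshold, from 81.7 to 96.8 CPM, a log2 fold change of 0.24 (standard error 0.06, edgeR, adjusted p = 3.94e-04). At an adjusted p under 0.05 alone, 51.4% of all tested genes passed in this comparison. MPZL2 was at 0 in both controls.

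Genes with few counts tended to the same side. Among the 3278 tested genes with 10 to 100 counts over all libraries, the median log2 fold change of ctrl-OE against ctrl-KO was 0.29, against 0.05 over all tested genes, and 12.3% were called higher. The median of the 6 members was 1.18, with 4 above and 1 below 0. In MEIS1-OE against ctrl-OE the median of the members was 0.11, with 3 above and 3 below 0, against 0.00 over all tested genes.

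Over the 18 OE and the 18 KO libraries as a description, MPZL3 had 73 counts against 5, CD3D 16 against 1, CD3G 17 against 3 and CD3E 14 against 1. Of the 14 counts of CD3E, 10 were those of MEIS1-OE that chose it, and each control held 1 count. MPZL3 was detected in 17 of 18 OE and in 4 of 18 KO libraries. The ratio per read was 13.0 for MPZL3 (exact 95% interval 5.31 to 41.1), 14.2 for CD3D (2.21 to 596) and 5.03 for CD3G (1.46 to 26.8). These genes met the count filter only through the OE libraries, which favoured a higher OE level in advance, so the intervals are no test. UBE4A had a ratio of 1.20 (1.18 to 1.21) in the same libraries. All these intervals pool 3 conditions on each side and cover counting error only. For UBE4A the interval is too narrow, since the variance of its counts within a condition was 6.12 to 40.97 times their mean.

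Levels between genes were compared as CPM per kb of exon. UBE4A was the only member above 1 on this scale, with 12.0 to 15.1 CPM per kb as means of the 6 conditions. MPZL2 in MEIS1-OE stood at 0.213 ± 0.045 CPM per kb (SD, n = 6), far below UBE4A in the same libraries (14.0 ± 1.15) and above MPZL3 (0.0443 ± 0.0365), CD3E (0.0298 ± 0.0275), CD3G (0.0127 ± 0.00839) and CD3D (0.00941 ± 0.0119). The ranges of these last 4 overlapped one another within their SD. Exon lengths were taken over all transcripts of a gene, so that the scale is approximate.

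UBE4A and MPZL3 had their highest mean levels in the OE conditions. UBE4A had 99.3 CPM in MEIS2-OE, 96.8 in ctrl-OE, 91.9 in MEIS1-OE, 81.7 in ctrl-KO, 80.8 in MEIS1-KO and 78.5 in MEIS2-KO. Within the OE and within the KO conditions these levels did not differ from their control in the test, with overlapping libraries. MPZL3 had 0.244 CPM in MEIS2-OE, 0.176 in MEIS1-OE and 0.147 in ctrl-OE, and 0.0247 CPM or less in the KO conditions, with MEIS1-KO at 0 counts in all 6 libraries.

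The positional neighbours of the stretch were taken as the 10 genes of the table nearest on each side, from 435.8 kb before to 619.4 kb after the start of MPZL2. Of these 20 genes, 14 had enough counts to be tested. On the side of MPZL2, AMICA1 (39.4 kb away, a junction adhesion molecule) had 0 counts in all libraries and SCN2B 5 counts. In MEIS1-OE, 1 of 14 was called, against 2.84% of all tested genes. This was FXYD6, a regulator of the sodium pump, 387.0 kb from MPZL2, which rose from 7.30 ± 0.48 to 12.8 ± 1.26 CPM (SD, n = 6 each), a log2 fold change of 0.82 (standard error 0.08, edgeR, adjusted p = 2.45e-10). The other side had 10 tested genes with log2 fold changes from -0.57 to 1.04, of which 0 were called. The largest was that of CXCR5, a chemokine receptor of lymphocytes, with 20 counts over MEIS1-OE against 10 over ctrl-OE (standard error 0.48, edgeR, adjusted p = 0.221). DDX6, an RNA helicase, had an adjusted p of 0.0368 (edgeR) with a log2 fold change of 0.17, under the fold threshold. With FXYD6, these were the 3 of 14 neighbours at an unadjusted p under 0.05. The median of the 14 was 0.06, with 9 above and 5 below 0.

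**Figure D2:**
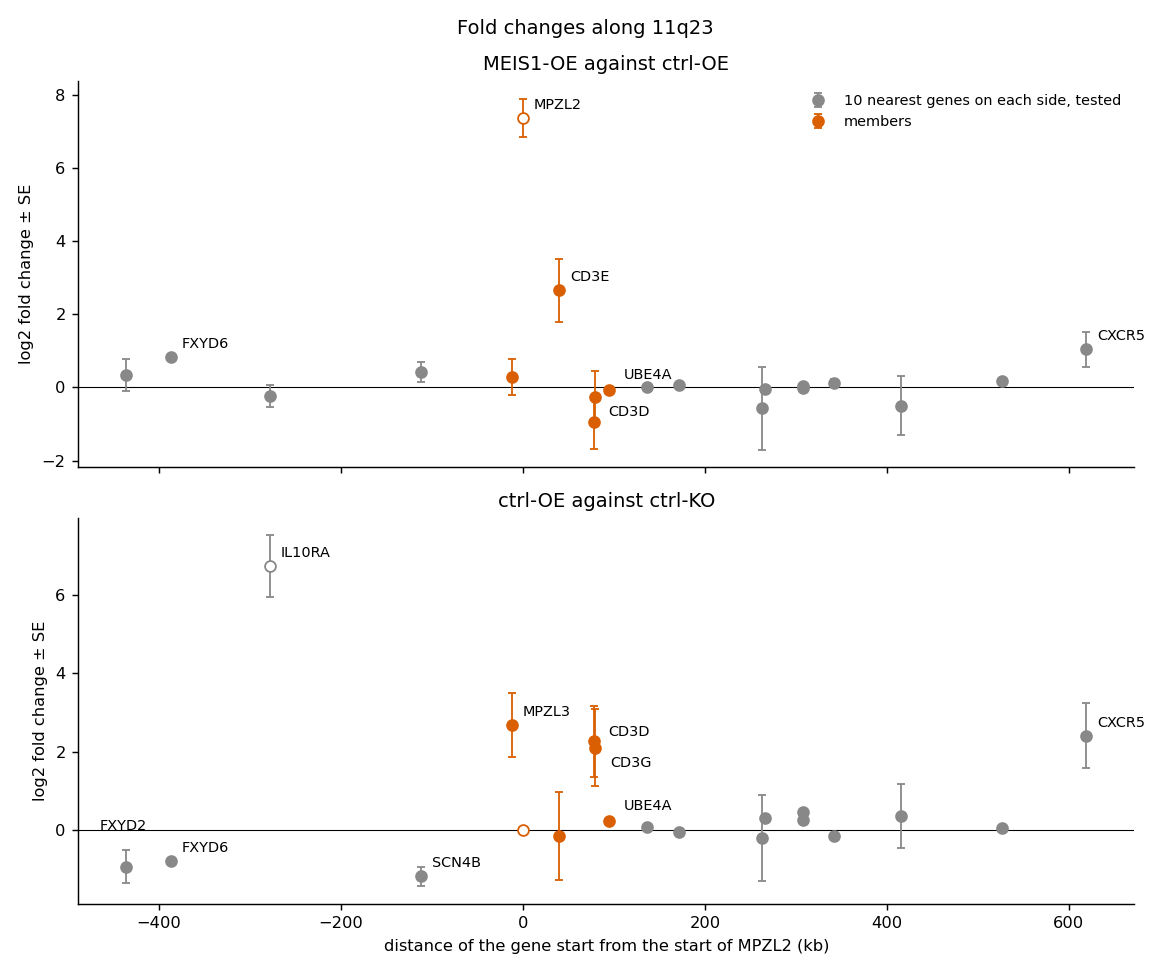
Log2 fold change ± standard error (y axis) of the 6 members (orange) and the 14 tested neighbours (grey) against the distance of their start from that of MPZL2 in kb (x axis), for MEIS1-OE against ctrl-OE and ctrl-OE against ctrl-KO. Open points have 0 counts in a group, so that their fitted value depends on the prior count, and names are given for UBE4A and for changes above 0.58 in size. In MEIS1-OE, MPZL2 (7.37) and CD3E (2.66) stand above genes on both sides, CD3E with a wide bar.

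In MEIS2-OE, 1 of 14 neighbours was called, against 0.498% of all tested genes. It was IL10RA, a chain of the interleukin-10 receptor, with 29 counts against 88 over ctrl-OE and a log2 fold change of -1.45 (standard error 0.36, edgeR, adjusted p = 0.0426). The call was lost in each of the 6 fits without 1 replicate number. In both KO conditions, 0 of 14 were called by edgeR or DESeq2, against 0.290% and 1.58% of all tested genes, with 1 and 4 at an unadjusted p under 0.05 in edgeR. In ctrl-OE against ctrl-KO, 4 of 14 were called, against 22.1% of all tested genes. IL10RA had 88 counts over ctrl-OE and 0 over ctrl-KO, at least 24.4-fold higher (adjusted p = 1.16e-07), and CXCR5 had 10 counts against 1 (log2 fold change 2.41, adjusted p = 0.0184). SCN4B, a sodium channel beta subunit, fell by 1.17 and FXYD6 fell by 0.78 on the log2 scale (adjusted p = 1.41e-04 and 9.62e-11, all from edgeR).

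The same count was made at the loci where the activation guides were aimed, but at larger distances and at targets that were not silent. MEIS1 stood at 17.8 CPM and MEIS2 at 22.6 CPM in ctrl-OE. Apart from MEIS1-AS3, the nearest tested neighbour started 963.9 kb from MEIS1. For MEIS2 it started 521.7 kb away, so spread over shorter distances could not be seen there. Around MEIS1 in MEIS1-OE, 1 of 18 tested neighbours was called, against 2.84% of all tested genes. With 20 genes on each side these were 2 of 32, the other being PROKR1, 2210.1 kb away, with 44 counts over MEIS1-OE. The nearer one was MEIS1-AS3, from 66653867 to 66660602 of chromosome 2 on the minus strand, whose start overlaps that of MEIS1 on the opposite strand. It rose from 3 to 91 counts over the group, or 4.69 on the log2 scale (standard error 0.39, edgeR, adjusted p = 7.74e-12). The strand setting of the counting is not given in the sources used here, so reads of MEIS1 and of MEIS1-AS3 cannot be told apart where they overlap. Around MEIS2 in MEIS2-OE, 0 of 16 tested neighbours were called by edgeR or DESeq2, against 0.498% of all tested genes, while 3 had an unadjusted and 2 an adjusted p under 0.05 in edgeR with a smaller fold.

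**Figure D3:**
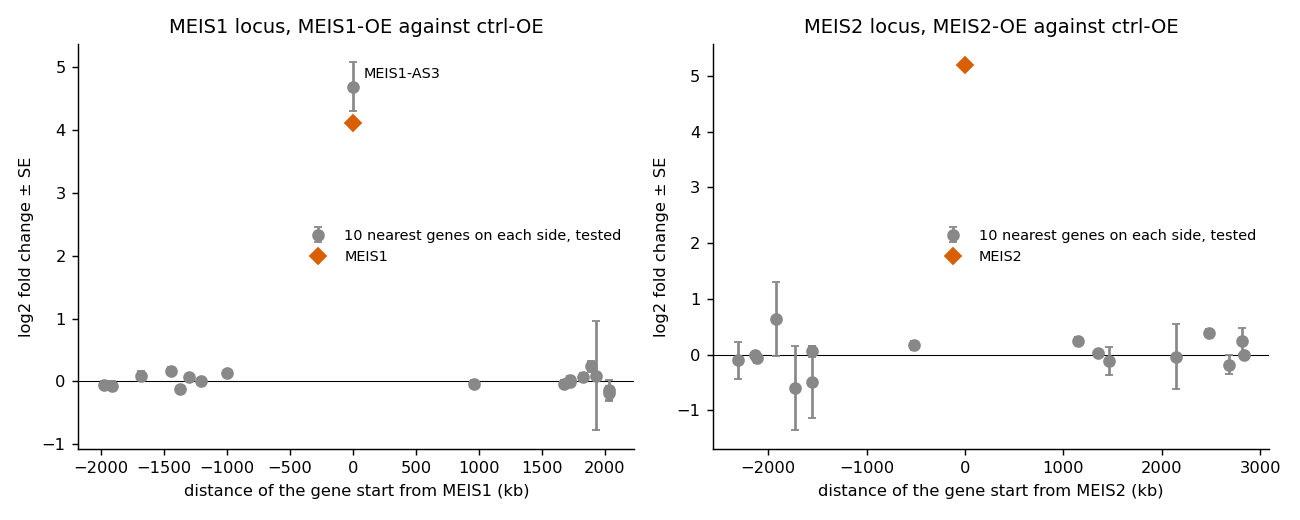
Log2 fold change ± standard error (y axis) of MEIS1 in MEIS1-OE and of MEIS2 in MEIS2-OE (diamonds) and of the tested genes among the 10 nearest on each side (grey) against the distance of their start in kb (x axis). MEIS1 (4.12) and MEIS1-AS3 (4.69) rose together in MEIS1-OE, and around MEIS2 (5.19) in MEIS2-OE none of the 16 plotted neighbours was called.

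The relatives of the members by function were looked up as well. MPZL1, a glycoprotein of the cell surface related to MPZL2 and MPZL3, was not called in MEIS1-OE, at 0.00 on the log2 scale (standard error 0.04). It stood at 162 ± 7.41 CPM in ctrl-OE and 162 ± 8.54 CPM in ctrl-KO (SD, n = 6 each). Of 7 U-box ligases including UBE4A, 0 were called by edgeR or DESeq2 in any of the 5 comparisons, with 0 to 2 at an unadjusted p under 0.05 in edgeR in the MEIS conditions and 6 in ctrl-OE against ctrl-KO. Of 11 tested genes of immunoglobulin-type junction proteins and channel subunits, 0 were called by edgeR or DESeq2 in MEIS1-OE, MEIS2-OE and the KO conditions (2 to 4 at an unadjusted p under 0.05 in edgeR), and 5 in ctrl-OE against ctrl-KO, where 22.1% of all tested genes were called (2 higher, with SCN3B among them, and 3 lower, JAM2, SCN4B and CLMP).

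Genes that act with the CD3 chains in T cells were looked up in the same comparisons. Of 8 tested genes of T cell receptor signalling, 0 were called in MEIS1-OE by edgeR or DESeq2, with a median log2 fold change of -0.01, and 0 in MEIS2-OE and the KO conditions. FYN, a kinase of the same family as LCK that is also made in neural cells, stood at 249 CPM in MEIS1-OE and 170 CPM in ctrl-OE. Its log2 fold change of 0.55 (standard error 0.04, edgeR, adjusted p = 1.11e-12) was under the fold threshold. At an unadjusted p under 0.05 in edgeR these numbers were 1 in MEIS1-OE, 0 in MEIS2-OE, 1 in MEIS1-KO and 3 in MEIS2-KO. In ctrl-OE against ctrl-KO, 6 of 8 were called, against 22.1% of all tested genes. LCK, the kinase that phosphorylates CD3 chains, rose from 3 to 99 counts over the group (log2 fold change 4.49, adjusted p = 4.24e-11). ZAP70, a kinase that binds phosphorylated CD3 chains, rose by 1.91 on the log2 scale (adjusted p = 2.08e-09, edgeR). CD247, the zeta chain of the same receptor complex, fell by 1.12 and FYN by 0.84 (adjusted p = 0.00294 and 6.27e-19, edgeR).

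The list of 20 T cell markers, which holds none of the members, shares genes with the signalling list. Of its 20 genes 18 were in the table and 14 were tested, of which 6 were called higher and 1 lower in ctrl-OE, against 13.0% higher and 22.1% in either direction of all tested genes, and 0 in the other 4 comparisons (0 to 3 at an unadjusted p under 0.05 in edgeR, and 0 by DESeq2). The summed level of the list was 27.8 to 35.1 CPM in ctrl-OE, 37.4 to 45.0 in MEIS1-OE, 31.2 to 35.3 in MEIS2-OE and 21.0 to 29.9 in the KO conditions. CD4 alone stood at 31.3 CPM in MEIS1-OE, 22.0 CPM in ctrl-OE and 18.8 CPM in ctrl-KO, and its log2 fold change in MEIS1-OE of 0.51 (edgeR, adjusted p = 1.64e-06) was under the fold threshold. CD8B and SKAP1 were at 0 counts in ctrl-OE and CD2 and CD28 at 0 in MEIS1-OE. A list of 8 epithelial markers lay at 4.78 to 9.26 CPM in the OE and 1.20 to 2.34 CPM in the KO conditions, with KRT19 at 0 in all libraries. KRT18, KRT8 and EPCAM, 3 of 6 tested, were called higher in ctrl-OE, and 7 of 10 neural stem cell markers lower, against the same 13.0% higher and 22.1% in either direction. In bulk RNA, fewer cells of a type and less RNA per cell cannot be told apart, and the part of these markers in the member values was not tested.

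Within MEIS1-OE, the level of MEIS1 varied little between libraries, from 287 to 323 CPM. MPZL2 was lowest in the library with the least MEIS1, with Pearson r = 0.77 (exact permutation p = 0.0597, two-sided, 0.104 after Benjamini-Hochberg adjustment over 3 relations) and Spearman rho = 0.77 (exact permutation p = 0.103). Without the 2 libraries farthest from the median of MEIS1, r was 0.05, so the relation rests on those libraries. For CD3E and MEIS1, r was 0.78 (exact permutation p = 0.0694) and rho 0.54 (p = 0.297), and r was 0.48 without those libraries. MPZL2 and CD3E had r = 0.31 (exact permutation p = 0.55) and rho = 0.09 (p = 0.919). None of the 3 relations passed. The smallest p that 6 libraries allow is 0.00139 for r, and it is higher for rho.

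**Figure D4:**
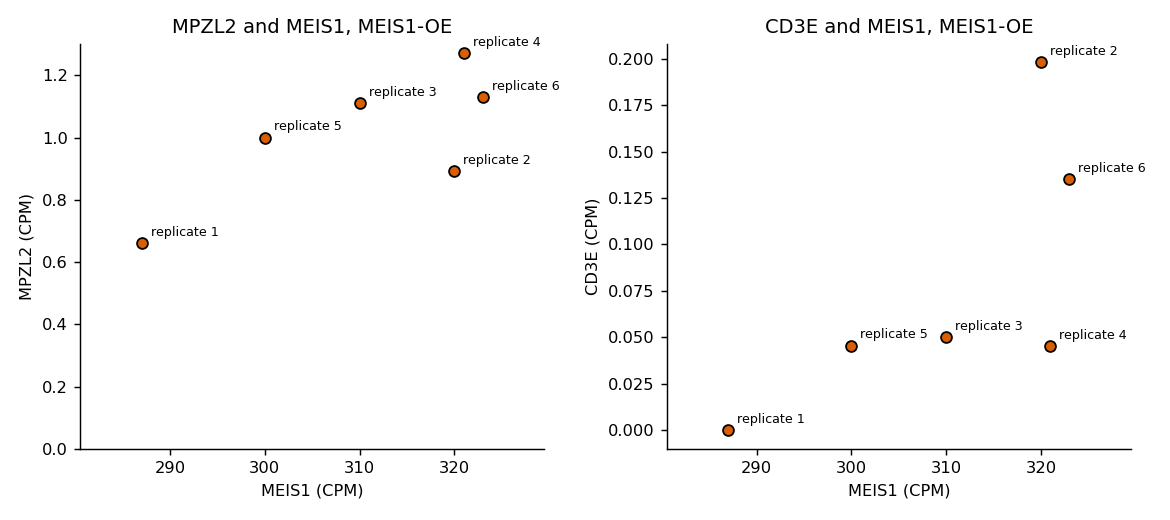
MPZL2 and CD3E (y axes, CPM) against MEIS1 (x axis, CPM) in the 6 MEIS1-OE libraries, 1 point for each. Replicate 1 had the least MEIS1 and the least of both genes, and replicate 2 the most CD3E (0.198 CPM) but less MPZL2 (0.893 CPM) than 4 other libraries.

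The genes most like MPZL2 over the 36 libraries, by Pearson correlation of log2 CPM, were GOLGA6D (r = 0.987), KLK8 (0.985), FAT2 (0.980), TTC9B (0.978) and C1QTNF1-AS1 (0.977). These points share the contrast of MEIS1-OE with all other libraries, and the correlations are a description. In any library of the other conditions all 5 reached at most 0.201 CPM, with FAT2, a cadherin, reaching 48.9 ± 6.43 CPM and KLK8, a serine protease, 1.39 ± 0.355 CPM in MEIS1-OE (SD, n = 6 each). GOLGA6D belongs to a family of near-identical copies, among which its reads cannot be placed with certainty. They lie on chromosomes 15, 19, 5, 19 and 17. Of the other members, CD3E had r = 0.665 and was number 436 among the tested genes, and UBE4A (0.163), CD3D (0.092), CD3G (0.275) and MPZL3 (0.296) were further down.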

How the data were processed

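The deposited values are raw counts per gene symbol, made by the authors from stranded poly-A libraries read from both ends with 100 bases, aligned to hg19 and counted with HTSeq 0.6.0. STAR 2.4.2a is named in the study's text and STAR 2.7.0a with Trimmomatic 0.39 in the submitters' processing notes. Samples were grouped by their treatment label. The members and lists were chosen with earlier results of these data known.

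All 36 libraries entered one fit of 6 conditions in edgeR 4.0.16 (R 4.3.3, TMM, quasi-likelihood F test, two-sided, Benjamini-Hochberg over 19689 genes), tested on simulated data. The standard error of a log2 fold change was taken as its size over the root of F. Ratios of few counts have conditional exact 95% intervals, which cover counting error only. Positions were found for 76.8% of the symbols, 1517 of them through an older symbol, and genes without one cannot appear as neighbours. Libraries of a condition differed by more than counting error (chi-square per degree of freedom 2.63 to 36.0).

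The genes named are the members, the targets, called neighbours, the 5 genes most like MPZL2 and up to 5 called genes of each list. Results for some genes of the lists are not reported here. AMICA1, SCN2B, CXCR5, DDX6, FYN, CD4, PROKR1 and TRA were named after their values were seen. Alternatives were RLE scaling, filterByExpr, no filter, a prior count of 2, only the groups compared, a replicate block, leaving out each replicate number, DESeq2 1.42.0, adjusted p alone, other numbers of neighbours, linear CPM and Spearman correlation.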

Additional observations from a re-analysis of the deposited data

How the results depend on the processing

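The counts of members in MEIS1-OE rest on the values that chose them and are a description. The 2 members past the thresholds there became 1 with filterByExpr, no filter on low counts, only the groups compared and DESeq2, and 1 to 2 without a replicate number. CD3E was lost without replicate 1, 2, 4, 5 or 6, in the fit without replicate 2 because it fell under the count filter. With a prior count of 2 the log2 fold change in MEIS1-OE was 3.49 for MPZL2 and 0.75 for CD3E. In ctrl-OE against ctrl-KO the 2 called members became 0 with filterByExpr, which left MPZL2 and UBE4A as the tested members, 1 with DESeq2, and 1 to 2 without a replicate number. The called neighbours in MEIS1-OE were 1 in the reported fit, 2 at adjusted p alone (with DDX6), 0 with 5 and 2 with 20 genes on each side (with BCL9L). In MEIS2-OE the single called neighbour, IL10RA, was 0 with the replicate block, only the groups compared, 5 genes on each side, and in the 6 fits without a replicate number (0 to 0). With 20 genes on each side, 1 neighbour (TAGLN) was called in MEIS1-KO and 1 in MEIS2-KO. In ctrl-OE against ctrl-KO the 4 called neighbours were 7 at adjusted p alone, 1 with 5 genes on each side and 3 to 5 without a replicate number. The genes called over the whole table ranged from 26 (without replicate 3) to 64 in MEIS1-KO and from 189 (without replicate 5) to 330 in MEIS2-KO without a replicate number, and were 31 in MEIS1-KO without replicate 6. Of the 5 genes most like MPZL2, 3 were also among the first 5 by Spearman correlation. None of these alternatives reversed a called member.

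Libraries with the same replicate number deviated from their condition with a mean correlation of 0.0361 (16 of 90 pairs above 0.1), against -0.00732 for other numbers. The labels give only the number, and these values cannot tell whether libraries with the same number share a batch. With the replicate block, 2 members were called in MEIS1-OE, 2 in ctrl-OE against ctrl-KO and 0 in the other 3 comparisons, and apart from IL10RA the block changed no count of called members or of called neighbours on 11q23. The depth limits CD3E, CD3D, CD3G and MPZL3, which had at most 9 counts in any library.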

Other observations

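TRA, the symbol of the T cell receptor alpha locus, whose product assembles with the CD3 chains, was among the 34 genes that were near silent in ctrl-OE and called higher in MEIS1-OE. It was named after its values were seen. It had 39 counts over MEIS1-OE, with 4 to 11 in each library, 1 count over ctrl-OE and 0 in the other 4 conditions. No position was assigned to this symbol, and which transcripts the authors counted under it is not given in the sources used here. TRAC, the constant segment of the same locus, stood at 0.0227 CPM in MEIS1-OE and 0.00692 CPM in ctrl-OE, which is 1.14 on the log2 scale (standard error 0.98, edgeR, adjusted p = 0.617).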
